A study of Mus musculus with 33 samples.

Results

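Chemokine ligands and chemokine receptors were examined in bone marrow RNA of mice given venetoclax or ruxolitinib. The members were all endogenous probes named as a CC, CXC, CX3C or XC ligand or receptor, without Cxcl12, Cxcl14, Cxcr2, Cxcr4, Cxcr5, Cx3cr1, Ccr2 and Ccr3. This gave 44 of the 750 endogenous genes on the panel, of which 33 were ligands and 11 were receptors. The ligands comprised 21 of the CC family, 10 of the CXC family, Xcl1 and Cx3cl1.

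Chemokines are small secreted proteins that steer leukocytes by binding G protein-coupled receptors on their surface. Inflammatory chemokines are made on demand and recruit neutrophils, monocytes and effector lymphocytes, while homeostatic chemokines guide lymphocytes and dendritic cells through lymphoid organs. In bone marrow they direct the retention and release of blood cells, and Cxcl9, Cxcl10 and Cxcl11, the ligands of CXCR3, are well known targets of interferon signalling through the Janus kinases.

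Bone marrow RNA came from female C57BL/6 mice aged 6 to 8 weeks, 1 mouse to each of 33 lanes of the NanoString nCounter, which counts colour-coded probes bound to RNA without amplification. Venetoclax, an inhibitor of the survival protein BCL2, was given by gavage once daily for 2 days, and its control mice received a phosal, polyethylene glycol and ethanol vehicle. Ruxolitinib, an inhibitor of the Janus kinases, was given by gavage 2 times a day for 2 days, and its control mice received a DMSO, polyethylene glycol and water vehicle. The stated doses were 100 for venetoclax and 180 for ruxolitinib, in mg/kg by the methods and in mg/ml by the labels. On each of days 1, 3 and 7 after treatment there were 3 mice for each drug and 2 for each vehicle, and there were 3 untreated mice. The file headers of the day 3 run read day 2, while the labels and methods give day 3, which is used here. The 11 lanes of a day formed 1 run with 1 untreated mouse in it, so day and run cannot be told apart, while each drug was compared with its vehicle inside a run. All mice were separate animals of 1 inbred strain, so p-values measure the spread between mice. The RNA was from whole marrow, in which fewer cells of a type and less RNA per cell cannot be told apart.

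The total of the endogenous probes ranged from 18056 to 466096 counts per lane, with a median of 158944. A count was taken as above background when it passed the mean plus 2 SD of the 8 negative control probes of its lane, a threshold of 1.83 to 7.85 counts. The neutrophil markers S100a8, Camp and Mpo and the B cell markers Ms4a1 and Pax5 were above background in all 33 lanes, and the B cell markers Cd79b and Cd79a in 32 and 25. Of the genes listed as epithelial markers, Cdh1 was above background in 27 lanes, Epcam in 11 and Muc1 in 2. The source of these counts was not tested. The lanes of venetoclax day 1 mouse 1 (18056 counts) and ruxolitinib day 3 mouse 1 (26881 counts) stood apart as shallow. In them a raw count of 1, the lowest value in the files, became a normalised count of 5.55 or 5.50 after scaling to housekeeping genes. The main changes that include these lanes are also given without them.

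A narrow set of these genes was detected. Only Ccl9 was above background in all 33 mice, which is 2.27% of the members, while 210 of all 750 endogenous genes were. In at least 17 of the 33 mice 16 members were above background, 8 ligands and 8 receptors, or 36.36% of the members against 68.67% of all endogenous genes. All 44 members together took between 0.303% and 0.770% of the endogenous counts of a lane, and 33.68% of their counts were at 1, against 14.44% of all endogenous counts.

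**Figure D1:**
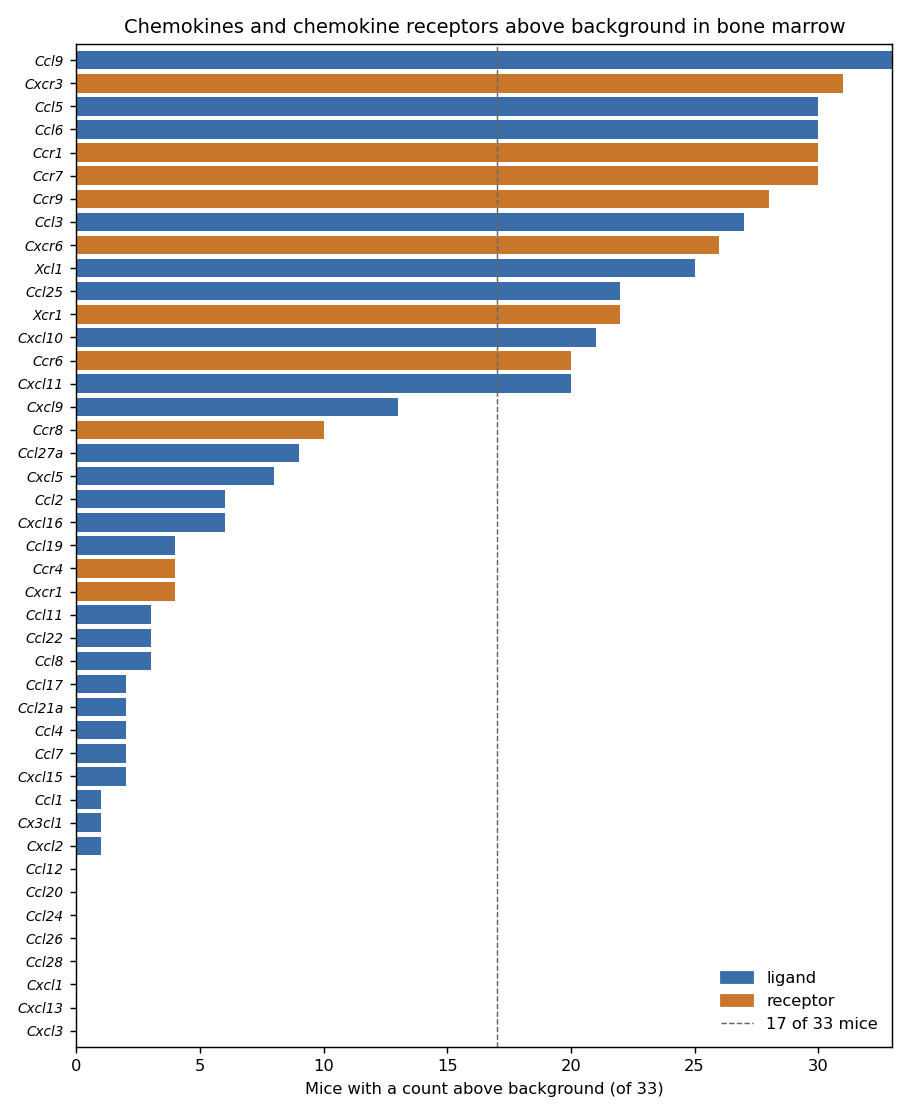
Number of mice, of 33, in which 43 of the 44 members had a count above the background of its lane, with ligands in blue and receptors in orange. Ccl9 reached all 33 mice, 15 of those drawn reached the dashed line at 17 mice, and 8 ligands had no bar.

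Among ligands, Ccl9, a macrophage inflammatory protein that binds CCR1, was followed by its relative Ccl6 and by Ccl5, a chemokine made by T and NK cells, each above background in 30 mice. Ccl3, another ligand of CCR1, was above background in 27 mice and Xcl1, a lymphocyte chemokine for XCR1-bearing dendritic cells, in 25. Ccl25, the ligand of CCR9, reached 22 mice, Cxcl10 21, Cxcl11 20 and Cxcl9 13. Among receptors, Cxcr3 reached 31 mice, Ccr1 and Ccr7 30, Ccr9 28, Cxcr6 26, Xcr1 22 and Ccr6 20. These receptors are carried by T and NK cells (Cxcr3, Cxcr6), by naive lymphocytes and mature dendritic cells (Ccr7), by lymphoid precursors (Ccr9), by myeloid cells (Ccr1), by cross-presenting dendritic cells (Xcr1) and by B cells and T cell subsets (Ccr6).

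The members grouped here as CXC ligands that attract neutrophils were largely at background. Cxcl1 and Cxcl3 were above background in no mouse, Cxcl2 in 1, Cxcl15 in 2 and Cxcl5 in 8. Ppbp, a chemokine on the panel that the name rule leaves out of the members, was above background in all 33 mice. Of the CCR2 ligands that draw monocytes out of marrow, Ccl12 was above background in no mouse, Ccl7 in 2 and Ccl2 in 6. The CC ligand Ccl8 was above background in 3. Of other ligands, Ccl28 and Cxcl13 reached no mouse, Ccl21a 2, Ccl19 4 and Ccl27a 9. The list of members above background in no mouse was completed by Ccl20, the ligand of CCR6, with Ccl24 and Ccl26, which attract eosinophils. The highest raw count of any of these 8 undetected members was between 3 and 5. Ccl1 and Cx3cl1 were above background in 1 mouse each, Ccl4 and Ccl17 in 2, Ccl11 and Ccl22 in 3, and Cxcl16 in 6. The remaining receptors were Ccr8 in 10 mice and Ccr4 and Cxcr1 in 4 each. At these depths the low members were not detectable, which is no statement that they were absent.

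Detection followed depth. The number of members above background ranged from 1 to 25 per lane, with a median of 16. Across the 33 lanes, which share the panel and the background rule, it had a Spearman correlation of 0.729 with the endogenous total. The 8 lanes under 60000 counts had 1 to 15 members above background (median 7.5), and the 25 lanes at or above it had 12 to 25 (median 18). The untreated mice had 4 to 15. On day 1 the venetoclax mice had 3 to 22 and their vehicle 16 to 17, and the ruxolitinib mice had 14 to 18 and their vehicle 19 in both mice. On day 3 it was 13 to 22 against 13 to 18 for venetoclax and 1 to 19 against 16 to 18 for ruxolitinib, and on day 7 it was 6 to 23 against 15 to 25 and 10 to 20 against 9 to 25. The ranges of drug and vehicle overlapped in all of these but ruxolitinib on day 1, and the numbers were not tested.

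**Figure D2:**
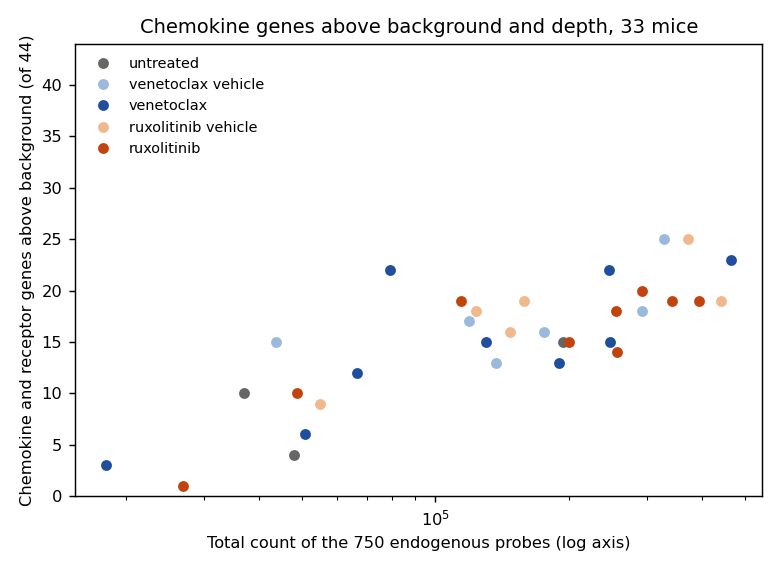
Number of the 44 members above background in each of the 33 mice against the total count of the 750 endogenous probes in its lane, on a log axis, coloured by treatment. The lane of ruxolitinib day 3 mouse 1, with 26881 counts, had 1 member above background, and the most members in a lane was 25.

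Of the 44 members, 33 were above background in at least 2 lanes and were tested with all 655 genes that met this rule, 22 ligands and 11 receptors. The other 11 members, named above with 0 or 1 lane, were not tested. Normalised counts are raw counts scaled to the housekeeping genes of the lane. Fold changes are log2 values from edgeR's quasi-likelihood model of the 13 group means, with p-values adjusted by Benjamini-Hochberg over the 655 genes and a threshold of 0.05. Probes differ in efficiency, so levels were compared between mice and not between genes.

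Ccr6 was the receptor that fell after venetoclax. Ccr6 is the receptor of CCL20 and marks mature B cells, Th17 cells and some dendritic cells. On day 1 its raw counts were 1, 3 and 1 in the venetoclax mice (normalised 5.55, 1.87 and 2.12) and 8 and 6 in the vehicle mice (8.63 and 4.78). On day 3 they were 4, 3 and 2 (3.48, 3.09 and 1.44) against 14 and 18 (16.1 and 8.84). On day 7 they were 2, 2 and 7 (3.47, 4.74 and 2.19) against 19 and 5 (7.42 and 14.0). Venetoclax mice were above background in 1 of 9 cases, and vehicle mice in 6 of 6. The groups did not overlap on days 3 and 7, and on day 1 they overlapped only through the shallow lane, whose raw count was 1.

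Averaged over the 3 days, Ccr6 fell by 1.76 on the log2 scale, or 3.38-fold, after venetoclax (SE 0.36, 95% interval -2.50 to -1.01 from a t distribution on 20 degrees of freedom, adjusted p = 0.00359 by edgeR). It was 1 of 33 members called in this comparison, in which 2.9% of all tested genes were called, all of them lower. Single days gave -1.49 on day 1 (SE 0.72, adjusted p = 0.464; -1.70 without the shallow lane), -2.13 on day 3 (SE 0.54, adjusted p = 0.0819) and -1.65 on day 7 (SE 0.57, adjusted p = 0.730; -1.09 without venetoclax mouse 3), so no single day passed. The mean of days passed in each of the 12 alternative analyses that tested the gene and in each of the 15 fits without 1 mouse, with changes between -2.07 and -1.40. Without the 2 shallow lanes it was -1.82 (edgeR adjusted p = 0.00415). All 15 raw counts behind it were 19 or lower. Most venetoclax counts were not above background, so the fold change is no exact measure of the size of the fall.

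**Figure D3:**
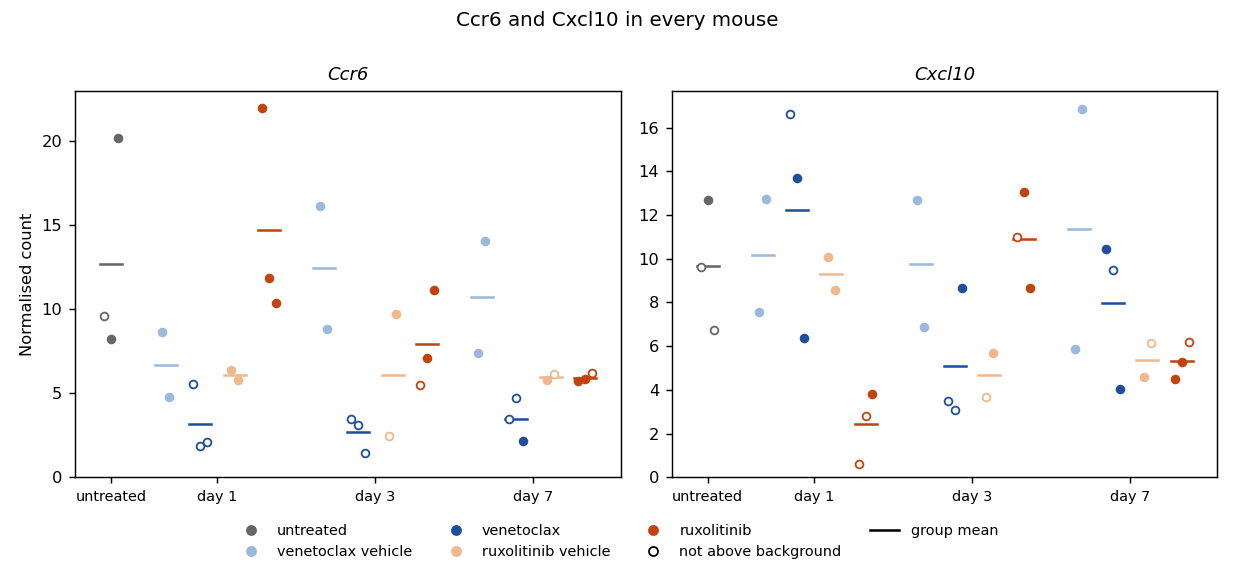
Normalised counts of Ccr6 (left) and Cxcl10 (right) in each of the 33 mice by day and treatment; hollow points were not above the background of their lane and bars are group means. For Ccr6, 8 of the 9 venetoclax points are hollow and the venetoclax means (2.67 to 3.47) lie below those of the vehicle (6.71 to 12.5), and for Cxcl10 the ruxolitinib mice of day 1 lie below both vehicle mice.

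Markers of the cells that carry Ccr6 were set beside it. Of 4 B cell markers (Cd79a, Cd79b, Ms4a1 and Pax5) none was called after venetoclax over the mean of days, and their changes ran from -0.27 to 0.28 with a median of -0.12, against a median of 0.04 over all tested genes. Of 5 T cell markers, Cd8a (-1.90, SE 0.46, edgeR adjusted p = 0.0139) and Cd3d (-0.94, SE 0.23, edgeR adjusted p = 0.0153) were called lower, and the median of the 5 was -0.93. The summed T cell markers were 32.2 to 41.8 normalised counts on day 3 after venetoclax and 70.2 to 91.1 in its vehicle, without overlap, and 35.3 to 61.6 against 71.5 to 121 on day 7. On day 1 the sums overlapped, at 29.3 to 66.6 against 55.8 to 58.3. The summed B cell markers overlapped on days 3 and 7 (265 to 412 against 315 to 402, and 377 to 648 against 432 to 452) and did not on day 1 (234 to 249.6 against 274 to 341). The part of these markers in the Ccr6 result was not tested. After each group mean was removed, the genes whose log2 levels followed Ccr6 most closely over the 33 lanes were Cd8a (Pearson's r 0.66), Abca1 (0.634) and Cxcr3 (0.621). They are given as a description of lanes that share scaling and depth. Cd8a, with a median raw count of 5, was above background in 16 lanes, and Ccr6 in 20. The correlation and the fold change of Cd8a therefore rest on low counts.

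Ccr6 was not called after ruxolitinib. On day 1 the raw counts were 35, 21 and 19 (normalised 21.97, 11.9 and 10.4) against 7 and 17 (6.41 and 5.82) in the vehicle, so that all 3 ruxolitinib mice lay above both vehicle mice. The change was 1.27 (SE 0.41, edgeR adjusted p = 0.112) and did not pass, while it was called with both vehicles pooled (1.21, edgeR adjusted p = 0.0351) and in a fit of only the groups compared, and was 0.43 with untreated mice as control. Day 3 (1, 18 and 9 raw counts against 2 and 12) and day 7 (14, 20 and 2 against 19 and 3) overlapped, and the mean of days was 0.52 (SE 0.28, 95% interval -0.06 to 1.09, edgeR adjusted p = 0.551). The untreated mice had raw counts of 3, 11 and 6 (9.60, 8.22 and 20.2). Beside these values, the summed B cell markers did not overlap between ruxolitinib and its vehicle on any day: they were higher on day 1 (378 to 432 normalised counts against 321 to 348) and lower on day 3 (161 to 231 against 321 to 390) and day 7 (169 to 251 against 420 to 426). Over the mean of days the 4 B cell markers had a median of -0.45, and 1, Pax5, was called lower (-0.83, SE 0.21, edgeR adjusted p = 0.0264). The summed T cell markers were 62.8 to 69.5 against 55.9 to 60.3 on day 1, without overlap, and overlapped on days 3 and 7. For the difference between the drugs over the mean of days the B cell markers had a median of 0.40 and the T cell markers one of -0.55 (range -1.74 to -0.44), with none called, and the part of these markers was not tested. The difference between the drugs, venetoclax change minus ruxolitinib change over the mean of days, was -2.27 (SE 0.45, 95% interval -3.21 to -1.33, edgeR adjusted p = 0.00345), where 0.611% of all genes were called, and -2.35 without the shallow lanes (edgeR adjusted p = 0.00394). That contrast was added after the Ccr6 values were seen. On single days the difference was -2.75, -2.42 and -1.64 (edgeR adjusted p = 0.0827, 0.668 and 0.998), and no member was called there, with 1.68%, 0.153% and 0.305% of all genes called. At an unadjusted p under 0.05 the drugs differed for 5, 3 and 1 members, against 13.4%, 3.05% and 3.82% of all genes.

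Among the ligands, Cxcl10 fell after ruxolitinib on day 1. Cxcl10 attracts activated T and NK cells through CXCR3. Raw counts were 1, 5 and 7 in the ruxolitinib mice (normalised 0.628, 2.83 and 3.83) and 11 and 25 in the vehicle mice (10.1 and 8.56). Both vehicle mice and 1 of 3 ruxolitinib mice were above background, and the groups did not overlap. The change was -1.83, or 3.56-fold lower (SE 0.51, 95% interval -2.90 to -0.76, edgeR adjusted p = 0.0426), and Cxcl10 was 1 of 33 members called where 2.75% of all genes were called. With 1 of 3 ruxolitinib mice above background, the fold change is no exact measure of the size of the fall. This call was close to the threshold. It held in 7 of 12 alternatives and was lost, at changes of -1.96 to -1.72 and adjusted p-values of 0.0553 to 0.133, with scaling to the total count, with the replicate number as a block, without the 2 shallow lanes, in limma and in DESeq2. It was also lost without either vehicle mouse and without ruxolitinib mouse 1 or 2, with changes of -2.30 to -1.42 over the 5 fits that left out 1 mouse.

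On later days Cxcl10 was not called. On day 3 the raw counts of Cxcl10 were 2, 33 and 7 after ruxolitinib (normalised 11.01, 13.1 and 8.68) and 3 and 7 in the vehicle (3.67 and 5.68), with the drug mice above the vehicle mice (1.23, SE 0.56, edgeR adjusted p = 0.905). It was 1.24 without the shallow lane, 0.79 with both vehicles pooled and 0.0754 with untreated mice as control. On day 7 the change was 0.05 (edgeR adjusted p = 0.999). The change on day 7 minus that on day 1 was 1.88 (edgeR adjusted p = 0.325), so a return was not shown by its own test, in which 1.53% of all genes and no member were called (3 members at an unadjusted p under 0.05, against 9.62%). After venetoclax Cxcl10 differed by 0.21, -0.74 and -0.38 on the 3 days, none called. On day 1 the 2 drugs differed by 2.04 for Cxcl10 (edgeR adjusted p = 0.143).

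The other ligands of CXCR3 were low. Cxcl9 had raw counts of 2, 6 and 3 after ruxolitinib on day 1, none above background, and 5 and 12 in the vehicle, both above it, with no overlap of the normalised counts and a change with an edgeR adjusted p of 0.573. Cxcl11 had 4, 7 and 6 against 5 and 16, with 0 of 3 and 2 of 2 mice above background and a change of -0.64 (SE 0.74, edgeR adjusted p = 0.743). By normalised counts all 3 ligands were thus below the vehicle in all 3 ruxolitinib mice, and 1 of the 3 passed the test. Of all tested genes, 16.3% were lower without overlap in this comparison. The raw counts of Cxcl9 and of Cxcl11 overlapped between drug and vehicle. After venetoclax on day 1 Cxcl11 had raw counts of 5, 11 and 5 (normalised 27.7, 6.85 and 10.6) against 4 and 3 (4.32 and 2.39), without overlap, and a change of 1.67 (SE 0.89, edgeR adjusted p = 0.543). It was 1.27 without the shallow lane, and with untreated mice as control its direction turned. Interferon-inducible genes that are no chemokines were set beside the ruxolitinib values of day 1. Of 8 tested, 4 were called lower by edgeR, namely Ifit3 (-2.81), Isg15 (-2.47), Oas2 (-2.10) and Rsad2 (-1.73), and the median of the 8 was -1.58 against 0.13 over all tested genes. Their summed level was 149 to 164 normalised counts after ruxolitinib and 350 to 367 in the vehicle on day 1. After venetoclax on day 1 it was 202 to 366 against 380 to 385, also without overlap, and none of the 8 was called, with a median of -0.06 against -0.02 over all tested genes. After ruxolitinib it was 371 to 402 against 301 to 343 on day 3 and 337 to 401 against 311 to 317 on day 7. The gene whose residual level was closest to that of Cxcl10 over the 33 lanes was Oas3 (Pearson's r 0.563), another interferon-inducible gene, followed by Il5ra (0.533) and Il11ra1 (0.515). Il5ra was above background in 14 of these lanes.

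Promoter windows of Cxcl10 and Cxcl9 (Cxcl11 had no entry) are shown because Cxcl10 moved on the same day as the interferon-inducible genes. They are the 250 bases before the start in RefSeq, build GRCm38.p6, both on the minus strand and printed 5′ to 3′, at chr5:92348890-92349139 for Cxcl10 and chr5:92328080-92328329 for Cxcl9. Capitals mark the interferon-stimulated response element, searched as GAAA, any 2 bases and GAAA, and the kappa B motif, searched as GGGA, any 4 bases and CC, on both strands.
Cxcl10: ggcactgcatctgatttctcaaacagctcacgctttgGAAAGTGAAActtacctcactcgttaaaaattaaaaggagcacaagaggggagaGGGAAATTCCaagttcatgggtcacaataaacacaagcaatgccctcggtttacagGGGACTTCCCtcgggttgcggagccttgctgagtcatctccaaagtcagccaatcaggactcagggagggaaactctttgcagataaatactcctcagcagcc
Cxcl9: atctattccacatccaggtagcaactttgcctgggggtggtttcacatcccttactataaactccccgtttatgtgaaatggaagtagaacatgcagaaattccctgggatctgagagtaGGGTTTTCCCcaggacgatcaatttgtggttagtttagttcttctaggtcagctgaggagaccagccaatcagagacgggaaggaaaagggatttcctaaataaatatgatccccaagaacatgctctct
The Cxcl10 window held the response element 213 bases before the start and kappa B motifs 159 and 103 bases before it. The Cxcl9 window held 1 kappa B motif, 130 bases before the start, and no match to the response element. Of the 32 members with a promoter entry, 2 (Cxcl10 and Ccl19) held the response element, 2 (Ccl17 and Ccr6) the gamma-activated site (TTC, any 3 bases, GAA) and 16 a kappa B motif in any of their windows. Over all 32851 windows of this length in the RefSeq table, 2.98%, 7.02% and 17.6% held these motifs. A match is a run of letters and no evidence of binding.

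Ccl9 was the ligand above background in every mouse. Its group means lay between 238 and 374 normalised counts. On day 1 after venetoclax its normalised counts were 372, 376 and 373, against 255 and 268 in the vehicle, with no overlap and a change of 0.52 (SE 0.22, edgeR adjusted p = 0.353), and 0.52 without the shallow lane. On day 1 after ruxolitinib they were 243, 258 and 215 against 318 and 290, again without overlap and in the other direction (-0.35, SE 0.21, edgeR adjusted p = 0.508). On day 3 the ruxolitinib mice lay above the vehicle (369, 302 and 322 against 247 and 256, 0.38, edgeR adjusted p = 0.998, or 0.31 without the shallow lane), and on day 7 neither drug was apart from its vehicle. The untreated mice had 154, 285 and 290. Over the mean of days Ccl9 differed by 0.26 (SE 0.13, edgeR adjusted p = 0.505) for venetoclax and -0.02 for ruxolitinib.

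Ccl6 and Ccr1, both of myeloid cells, were higher in each ruxolitinib mouse than in each vehicle mouse on day 1. Ccl6 had normalised counts of 28.2, 44.7 and 38.3 against 20.1 and 21.6 (0.82, SE 0.38, edgeR adjusted p = 0.333). Ccr1 had 47.1, 40.2 and 53.1 against 28.4 and 30.8 (0.65, SE 0.32, edgeR adjusted p = 0.367). Ccr7, which draws lymphocytes and mature dendritic cells to lymph nodes, had 34.5, 39.6 and 36.6 against 21.98 and 26.02 (0.60, SE 0.27, edgeR adjusted p = 0.330). Cxcr6 (0.67) and Xcr1 (0.77) also did not overlap on that day, at adjusted p-values of 0.529 and 0.479. None of these passed, and over the mean of days Ccl6 was at 0.46 (SE 0.22) and Ccr1 at 0.37, both with an edgeR adjusted p of 0.551. On day 1 the summed neutrophil markers were lower after ruxolitinib (76428 to 89072 normalised counts against 94690 to 101563). So were those of eosinophils, basophils and mast cells (262 to 381 against 593 to 677), both without overlap. Each of these sums rested mostly on a single probe. S100a8 had a mean of 71726 normalised counts over the 33 lanes, and the next neutrophil marker, Camp, had 6359. Prg2 had a mean of 370, against 21.6 for Fcer1a and 18.3 for Ms4a2. The summed monocyte and macrophage markers overlapped (166 to 211 against 168 to 177). The part of these markers was not tested. Ccl6 and Ccr1 were called on day 1 in a fit of only the groups compared, Ccr1 also with both vehicles pooled, and the mean of days of Ccl6 was 0.89 with untreated mice as control and 0.30 with the replicate block. After venetoclax on day 1 Ccl6 lay the other way without overlap, at 5.55, 11.8 and 8.48 against 21.6 and 17.5 (-0.90, SE 0.55, edgeR adjusted p = 0.593, or -0.83 without the shallow lane).

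Of the ligands made by T and NK cells, Xcl1 had values in opposite directions on days 1 and 3 after venetoclax. The difference between these days was not tested. Xcl1 on day 1 had raw counts of 1, 4 and 1 after venetoclax, none above background, and 10 and 11 in the vehicle, both above it, and the normalised counts (5.55, 2.49 and 2.12 against 10.8 and 8.76) did not overlap. The change was -1.82 with an edgeR adjusted p of 0.0830, and it was -1.97 without the shallow lane (edgeR adjusted p = 0.125). On day 3 the venetoclax mice had 10.4, 11.3 and 12.96 against 3.46 and 8.35 (0.80, SE 0.36, edgeR adjusted p = 0.453), and the change rested on the vehicle mice, at 0.48 without the first and 1.72 without the second. On day 7 it was 0.25. Ccl5 had 39.2, 37.1 and 25.9 after venetoclax on day 3 against 19.6 and 18.7 (0.82, SE 0.37, edgeR adjusted p = 0.410). On day 1 after venetoclax its change was -0.85 without the shallow lanes (edgeR adjusted p = 0.566). After ruxolitinib on day 1 Ccl5 was lower in every mouse (-0.61, edgeR adjusted p = 0.460). Neither gene was called on any day against the vehicle. Xcl1 on day 1 was called with both vehicles pooled and with untreated mice as control, and with the latter the day 3 values of both genes turned direction.

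The lymphocyte receptors Ccr9 and Cxcr3 were not called after venetoclax against its vehicle, and the larger part of each difference came from 1 day. Ccr9, which guides T cell precursors and gut-homing lymphocytes, had raw counts of 2, 3 and 1 on day 1, none above background, and 10 and 14 in the vehicle. Its change there was -1.97 (SE 0.69, edgeR adjusted p = 0.182), with an overlap through the shallow lane, and -2.46 without that lane (edgeR adjusted p = 0.125). On days 3 and 7 Ccr9 was at 0.24 and -0.39, with group means of 9.42 against 8.54 and 19.1 against 19.3 normalised counts. Its mean of days was -0.71 (SE 0.32, edgeR adjusted p = 0.414), or -0.87 without the shallow lanes and -0.46 without venetoclax day 1 mouse 2. With untreated mice as control it was called (-1.68, edgeR adjusted p = 0.0116), and day 1 was called with that control and with both vehicles pooled. Cxcr3 on day 7 had normalised counts of 15.6, 7.11 and 10.9 against 17.97 and 33.7 (-0.93, SE 0.41, edgeR adjusted p = 0.847), and the change was -1.57 without vehicle mouse 1. On day 1 its group means were 14.06 against 12.7, with a fitted change of -0.40 (-0.74 without the shallow lane), and on day 3 the change was -0.11. Over the mean of days Cxcr3 was at -0.48 (SE 0.26, edgeR adjusted p = 0.584). Cxcr6 on day 3 went the other way, with all 3 venetoclax mice above both vehicle mice (0.90, edgeR adjusted p = 0.522).

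**Figure D4:**
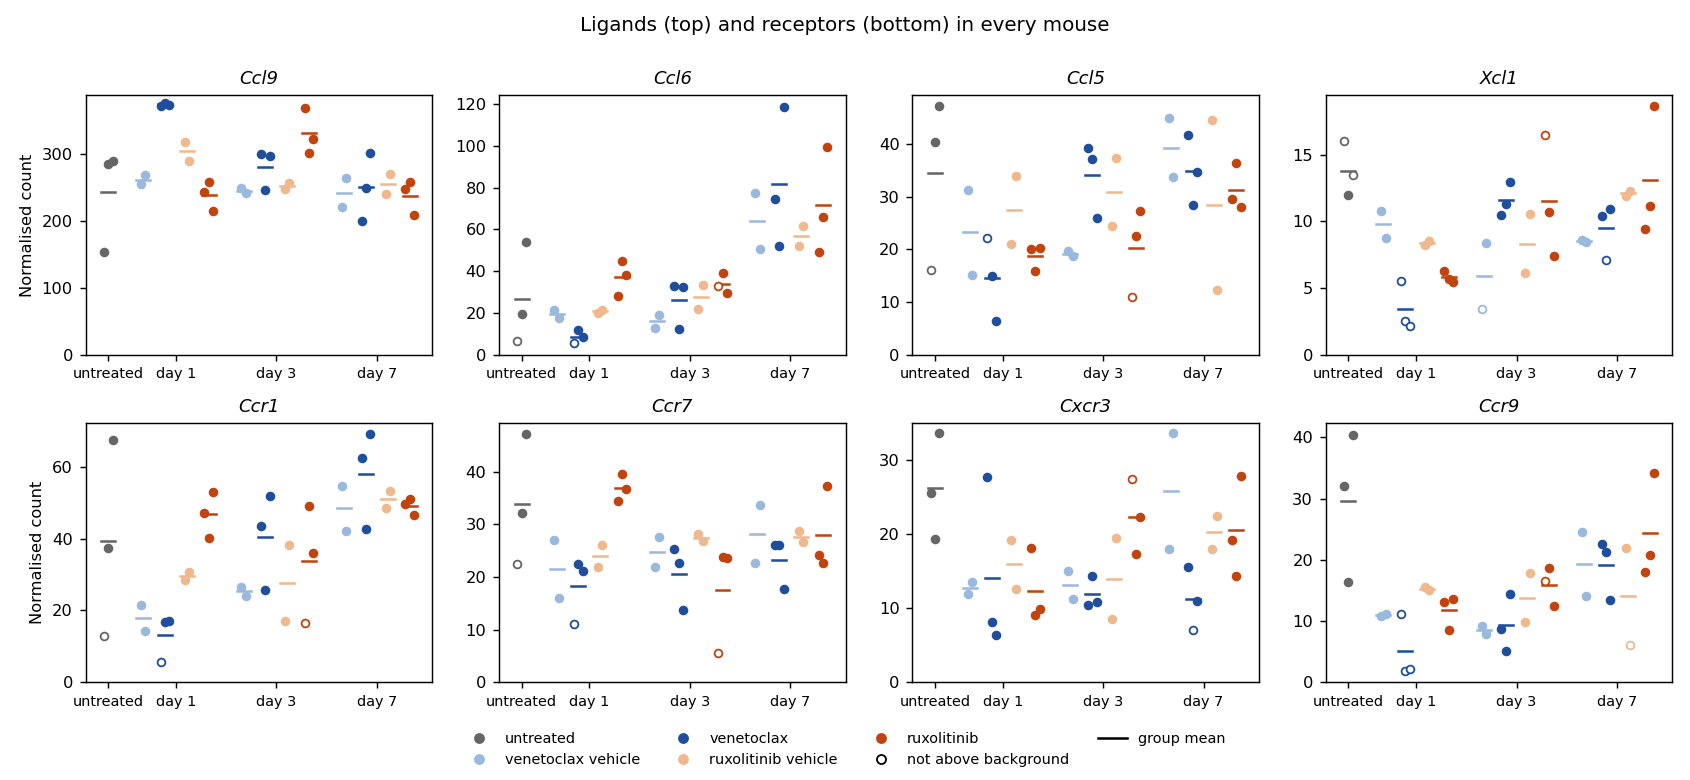
Normalised counts of 4 ligands (top row) and 4 receptors (bottom row) in each of the 33 mice by day and treatment, with hollow points for counts not above background and bars for group means. The Ccl9 group means lie between 238 and 374, Xcl1 has no filled venetoclax point on day 1, and Ccl6 and Ccr1 lie higher in the day 7 mice of every group than in the day 1 vehicle mice.

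Of the inflammatory ligands, Ccl3 on day 7 had normalised counts of 15.6, 17.6 and 12.4 after ruxolitinib against 11.3 and 6.15 (0.66, SE 0.35, edgeR adjusted p = 0.999). Its raw counts were 38, 60 and 4 against 37 and 3, so 1 mouse of each group had few counts. On day 3 its normalised counts were 22.01, 9.496 and 22.3 against 28.2 and 18.7, which overlapped (-0.65, SE 0.36, edgeR adjusted p = 0.998). That change was -0.73 without the shallow lane, -0.04 without ruxolitinib mouse 2, -1.07 without ruxolitinib mouse 3 and -0.37 without vehicle mouse 1. The groups did not overlap on day 7, where the change was 1.39 without vehicle mouse 1, and with untreated mice as control the day 7 direction turned. Ccl25 was lower after ruxolitinib on day 1 in each mouse (6.90, 2.83 and 4.38 against 9.16 and 8.22, -0.87, edgeR adjusted p = 0.421), and its mean of days was -0.70 (SE 0.33, edgeR adjusted p = 0.542), or -0.43 without ruxolitinib day 3 mouse 2, -1.10 without vehicle day 7 mouse 1 and -1.39 with untreated mice as control.

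**Figure D5:**
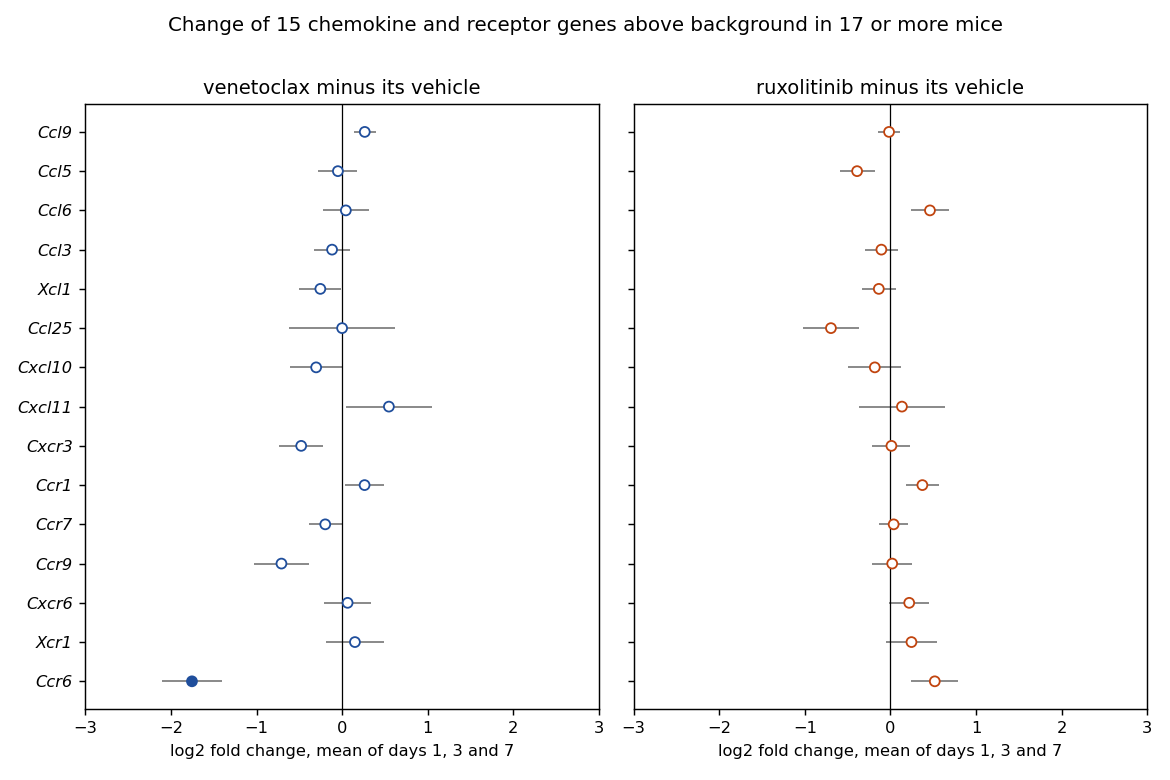
Log2 fold change of 15 of the 16 members above background in 17 or more mice, averaged over days 1, 3 and 7, for venetoclax (left) and ruxolitinib (right) against its vehicle, with bars of 1 standard error. The filled point, Ccr6 after venetoclax at -1.76, is the 1 with an adjusted p under 0.05.

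Counted over all 33 tested members, the drugs left most chemokine genes without a call. For venetoclax no member was called on day 1, 3 or 7, where 0.153%, 0.0% and 0.153% of all genes were called. At an unadjusted p under 0.05 there were 5, 3 and 2 members on these days, against 10.4%, 10.7% and 4.73% of all genes. For ruxolitinib no member was called on day 3 or day 7 (0.153% of all genes on each), with 1 member on each day at an unadjusted p under 0.05 against 4.73% and 3.51%. Over the mean of days no member was called for ruxolitinib where 1.22% of all genes were, with 4 members at an unadjusted p under 0.05 against 8.85%. Change between days 1 and 7 was called for no member in venetoclax either, where 0.0% of all genes were called, with 1 member at an unadjusted p under 0.05 against 5.65%. Limma and DESeq2 also called no member in any of these comparisons.

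The mice of drug and vehicle did not overlap for 19 of the 33 tested members after ruxolitinib on day 1. Of these 9 were higher (27.3% of the members against 27.6% of all tested genes) and 10 lower (30.3% against 16.3%). On days 3 and 7 it was 8 members (24.2%) against 15.6% and 3 members (9.09%) against 17.7%. After venetoclax it was 9 members (27.3%) against 27.5% on day 1, 5 (15.2%) against 26.1% on day 3 and 2 (6.06%, Ccr6 and Cxcr3) against 17.3% on day 7. The median change of the members was 0.09, 0.17 and 0.07 on the 3 days after venetoclax, against -0.02, 0.06 and -0.01 over all tested genes. After ruxolitinib it was -0.11, 0.29 and -0.08, against 0.13, 0.02 and 0.02.

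By function, the 5 inflammatory CC ligands Ccl3, Ccl4, Ccl5, Ccl6 and Ccl9 had a median of 0.04 for venetoclax and -0.02 for ruxolitinib over the mean of days, with none called. The 8 receptors of lymphocytes and dendritic cells given here had medians of -0.07 and 0.13, and 1 (Ccr6) was called lower after venetoclax. Of all tested genes, 2.9% were called for venetoclax and 1.22% for ruxolitinib over the mean of days. The 3 CXCR3 ligands had medians of 0.55 and -0.18, with none called. A further 4 tested ligands (Ccl19, Ccl21a, Ccl25 and Ccl27a) were at 0.09 and 0.26, also with none called. Of the other genes of the chemokine pathway on the panel, 13 were tested: none was called after venetoclax on any day or over the mean of days. After ruxolitinib Cxcl12, the stromal ligand that holds blood cells in marrow, was called higher on day 1 (1.93, SE 0.43, edgeR adjusted p = 0.00533) and over the mean of days (1.12, SE 0.25, edgeR adjusted p = 0.0105), Cxcl14 higher on day 1 (1.77, SE 0.44, edgeR adjusted p = 0.0145), and Dpp4, a protease that trims chemokines, lower over the mean of days (-0.81, SE 0.17, edgeR adjusted p = 0.0105).

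Vehicle and untreated mice were compared as a control for gavage and vehicle. With the 6 vehicle groups averaged and set against untreated mice, no member and no other gene was called (0.0%) by edgeR, and no member by limma or DESeq2. Of the 33 tested members 28 were lower in the vehicles, with a median of -0.69 against -0.14 over all tested genes, and 9 had an unadjusted p under 0.05, against 11.5% of all genes. These 9 included Ccl8 (-2.06), Ccl21a (-2.05), Ccr8 (-1.65), Cxcl11 (-1.48) and Ccr9 (-0.81). The untreated lanes had 47977, 194748 and 37003 counts, so a low raw count was scaled up 3.20-fold and 3.37-fold in the first and last. Within the run of the deeper untreated mouse the differences were 0.78 for Ccr8, 0.31 for Cxcl11, -0.58 for Ccr9, -0.62 for Ccl8 and -0.37 for Ccl21a. In the other runs they were -2.02 and -2.34 for Ccr8, -2.0 and -2.39 for Cxcl11, -1.24 and -1.39 for Ccr9, -2.88 and -0.68 for Ccl8, and -2.90 and -0.81 for Ccl21a.

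Some members differed between runs among control mice, though a smaller share of them than of all tested genes. In the 5 control mice of each run (4 vehicle-treated and 1 untreated), Ccl6 had a lowest, median and highest normalised count of 6.4, 20.1 and 21.6 on day 1, 12.7, 19.4 and 33.2 on day 3 and 50.6, 53.9 and 77.4 on day 7. Ccr1 had 12.8, 21.6 and 30.8 on day 1 and 42.1, 53.3 and 67.4 on day 7, and Cxcr6 3.66, 4.79 and 9.71 and then 10.2, 13.4 and 16.9. Ccl3 went the other way, from 20.7, 23.6 and 28.8 to 6.15, 14.0 and 17.2. Ccl25 had 5.58, 8.63 and 9.60 on day 1 and 1.83, 2.81 and 16.9 on day 7, which overlapped, with 2 of the 5 mice above background on day 7. Ccl6, Ccr1, Cxcr6 and Ccl3 were the 4 members whose control mice of days 1 and 7 did not overlap. They were picked after their values were seen. Of the 33 tested members 3 were higher on day 7, against 18.8% of all tested genes, and 1 was lower, against 6.87%. Both shares of the members were below those of all tested genes. With all 20 housekeeping probes for scaling Cxcr6 overlapped. Beside them the macrophage marker Cd68 went from a median of 38.5 to 107 without overlap, Csf1r, of the same marker list, from 134.9 to 182.6 with overlap (109.9 to 169.6 and 151.6 to 246.1), and the neutrophil marker S100a8 from 88312 to 42317. S100a8 is 1 of the 6 neutrophil markers on the panel, and the others were not compared between runs. The part of these markers in the differences was not tested, and no test was made because day and run cannot be told apart.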

How the data were processed

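Bone marrow RNA of 33 mice was measured with a NanoString nCounter immune panel. The deposited values are raw probe counts, 1 lane per mouse, with control probes included and before the authors' own normalisation in nCounter Advanced Analysis. Groups came from the deposited labels. Lanes were scaled to 11 of the 20 housekeeping probes (their geometric mean), those detected everywhere. Genes that passed the background of 2 or more lanes, 655 in number, were fitted with edgeR 4.0.16 in R 4.3.3 (quasi-likelihood, 13 group means, no block, all lanes, Benjamini-Hochberg). The common dispersion was 0.0406, with 20 residual degrees of freedom, and counting error limits genes with few counts. Alternatives used limma 3.58.1, DESeq2 1.42.0, other scalings, filters and controls, a replicate block and each mouse left out. The test was checked on simulated counts for venetoclax day 1 against its vehicle. It recovered 34% of 2-fold and 75% of 4-fold changes there, and 52.8% of 4-fold changes at a mean under 20. The simulated counts had no background floor, while real counts were never below 1. These shares therefore need not hold for the low members. Promoters were read with Python 3.11.15 and pandas 2.3.3. Gene names were matched to RefSeq (44 of 44 members). Apart from counts over all members, 1 member is not reported here, nor is 1 marker gene.

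The members, gene lists and tests were chosen with earlier results of these data known. Values per mouse were given for members called in any contrast, for the 2 members with the smallest p in each contrast of drug and vehicle among those above background in at least 50% of its mice, and for the 4 ligands and 4 receptors with the highest mean. Cxcl9, Cxcr6, Xcr1 and the vehicle and run comparisons were added after their values were seen.

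Whether the shared replicate numbers of the labels pair the mice was checked by the correlation of deviations from the group means, which ran from -0.301 to 0.395, so no pairing was used.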

Additional observations from a re-analysis of the deposited data

Results flagged for a closer look

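The change of Ccr6 after venetoclax differed from its change after ruxolitinib, at -2.27 on the log2 scale over the mean of the 3 days (SE 0.45, edgeR adjusted p = 0.00345), by a test of the difference between the drugs. That test was added after the values of Ccr6 were seen. It passed in 10 of 10 alternatives that could be run on it, with changes of -2.39 to -1.92, and in 30 of 30 fits without 1 mouse. Beside it, the 4 B cell markers had a median difference between the drugs of 0.40 and the 5 T cell markers one of -0.55, with none called. After venetoclax alone the T cell markers Cd8a (-1.90) and Cd3d (-0.94) were called lower, and the part of these markers in the result was not tested.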

How the results depend on the processing

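The low counts of most members limit the precision. Of the alternative values, 374 kept direction and side of the threshold (counts: within 1.5 times) and 30 did not; of those without 1 mouse, 307 did and 8 did not. The cause was not tested. Members called after venetoclax changed from 0 to 2 on day 1 with both vehicles pooled and with untreated mice as control (Ccr9 and Xcl1), from 0 to 1 on day 3 under TMM scaling (Ccr6), from 0 to 2 on day 7 with untreated control (Ccl6 and Ccr6), and over the mean of days from 1 to 2 with untreated control (Ccr6 and Ccr9). After ruxolitinib on day 1 the count went from 1 to 0 with total count scaling, the replicate block, limma, DESeq2, a mean count of at least 10 (Cxcl10 not tested) and without the 2 shallow lanes, to 4 in a fit of only the groups compared (Ccl6, Ccr1, Ccr6 and Cxcl10) and to 3 with pooled vehicles (Ccr1, Ccr6 and Cxcl10); without 1 mouse it was 0 to 1. On day 7 it went from 0 to 2 with untreated control (Ccl25 and Ccl6). The untreated mice came from all 3 runs, so on a single day this control also carries differences between runs. The drug difference on day 1 went from 0 to 5 in the fit of only the groups compared. A mean count of at least 10 removed Ccr6, so the count was 0 over the mean of days for venetoclax and for the drug difference. The share of all genes called under each alternative is not given here, so these counts show no change particular to the members.

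Cxcl10 after ruxolitinib on day 1 (-1.83) was -1.72 with total count scaling (edgeR adjusted p = 0.114), -1.76 with the replicate block (0.0805), -1.83 without the shallow lanes (0.0553), -1.73 in limma (0.133) and -1.96 in DESeq2 (0.112). With untreated control the direction turned for Cxcl11 on day 1 (-0.0895 from 1.67), Ccl5 (-0.10 from 0.82) and Xcl1 (-0.16 from 0.80) on day 3 after venetoclax, and for Ccl3 (-0.13 from 0.66) on day 7 after ruxolitinib. With the replicate block Ccr6 after venetoclax was -1.65 over the mean of days (edgeR adjusted p = 0.0188); the block changed no call but that of Cxcl10. The number of members above background in at least 17 mice was 14 to 19 under 3 other background rules.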
